A study of Homo sapiens with 6 samples.

Results

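Collagen genes were defined as the protein-coding genes of GENCODE version 44 whose symbol is COL, a number, A and a number, and 44 of the 20015 protein-coding genes met this rule. They comprised 11 fibrillar collagens, 6 basement membrane collagens (the chains of type IV) and 27 other collagens. The data were a list of 30784 regions enriched for H3K27ac, the acetylated histone H3 lysine found at active promoters and enhancers, in SU-CCS-1. SU-CCS-1 is an established human clear cell sarcoma line that carries the EWSR1::ATF1 fusion. The series holds 3 libraries from chromatin immunoprecipitation with an H3K27Ac antibody and 3 input libraries, which are chromatin sequenced without immunoprecipitation, all from this 1 line and genotype, with no treatment named in the labels. The study used the mark in this line to call super-enhancers. Only 1 merged peak list with positions, and no values per library, was analysed. It gives no error between replicates, reads behind a peak, signal height or expression level, and the counts below describe a single list. A gene without a peak fell below the caller's cutoff or lost its peak to filtering, which does not show that it lacked acetylation. The 4 genes taken here as markers of the line, SOX10, MITF, PMEL and S100B, had a peak within 3 kb of the canonical start. So did 59.9% of all protein-coding genes. The 4 markers were chosen with earlier results of these data known and so are no check of the line.

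Collagens are secreted or membrane-bound chains that wind around each other in groups to form stiff helices. Fibrillar chains assemble into the cables of skin, bone, tendon and cartilage. Type IV chains form the sheet-like network of basement membranes, and the remaining families decorate fibrils, span cell membranes or build other networks. The type IV genes lie as pairs that start close together on opposite strands, an arrangement called head to head. Clear cell sarcoma arises in the deep soft tissues near tendons and aponeuroses, which are rich in fibrillar collagen, and its cells share features with melanocytes.

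The DNA at the starts shows how unlike these promoters are in CpG content. Stretches between the canonical starts of the 3 type IV pairs are given first, on the plus strand of hg38 and outside every annotated exon, with CG in capitals. Each is the exon-free part nearest the plus-strand gene, at most 300 bases long. The whole gaps measure 126, 418 and 1415 bases in the order below, so the CG counts cover unequal parts of them. The COL4A1/COL4A2 stretch, chr13:110307158-110307257, lay wholly inside a peak and holds 14 CG in 100 bases. The COL4A4/COL4A3 stretch, chr2:227164454-227164623, lay outside peaks and holds 12 CG in 170 bases. The COL4A6/COL4A5 stretch, chrX:108439538-108439837, holds 9 CG in 300 bases, and the 207 bases nearest COL4A5 lay in a peak.
COL4A1/COL4A2: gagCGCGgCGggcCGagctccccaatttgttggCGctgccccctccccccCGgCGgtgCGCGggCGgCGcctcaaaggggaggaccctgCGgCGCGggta
COL4A4/COL4A3: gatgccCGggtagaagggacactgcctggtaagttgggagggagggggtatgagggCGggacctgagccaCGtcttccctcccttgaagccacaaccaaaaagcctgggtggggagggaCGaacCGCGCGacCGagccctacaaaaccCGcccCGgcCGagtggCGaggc
COL4A6/COL4A5: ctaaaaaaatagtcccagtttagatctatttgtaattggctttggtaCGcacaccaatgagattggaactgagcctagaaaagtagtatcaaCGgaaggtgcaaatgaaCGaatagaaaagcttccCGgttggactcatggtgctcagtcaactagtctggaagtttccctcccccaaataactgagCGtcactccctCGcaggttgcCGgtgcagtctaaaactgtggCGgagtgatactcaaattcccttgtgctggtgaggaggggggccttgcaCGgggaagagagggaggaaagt

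Next are the 100 bases directly upstream of the RefSeq start (GRCh38.p14, read in the direction of transcription, CG in capitals) for 3 genes whose stretch lay wholly in a peak. They are COL5A1 at chr9:134641703-134641802 (plus strand, 9 CG), COL18A1 at chr21:45405065-45405164 (plus strand, 14 CG) and COL11A1 at chr1:103108523-103108622 (minus strand, 4 CG). The COL11A1 stretch has few CG dinucleotides although its peak was one of the widest at a collagen start.
COL5A1: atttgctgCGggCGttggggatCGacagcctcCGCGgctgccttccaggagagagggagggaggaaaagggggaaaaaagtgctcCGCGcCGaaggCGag
COL18A1: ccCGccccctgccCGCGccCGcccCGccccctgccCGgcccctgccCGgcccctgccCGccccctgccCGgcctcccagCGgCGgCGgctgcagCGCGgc
COL11A1: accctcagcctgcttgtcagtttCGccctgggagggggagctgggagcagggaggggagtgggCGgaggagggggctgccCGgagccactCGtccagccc

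For comparison, the same stretch is shown for 4 genes with no peak at the canonical start. They were chosen after the values were seen, to show start regions with CG and no peak, and do not stand for all such genes. They are COL6A2 at chr21:46098012-46098111 (plus strand, 15 CG), COL23A1 at chr5:178590394-178590493 (minus strand, 8 CG), COL26A1 at chr7:101362775-101362874 (plus strand, 10 CG) and COL27A1 at chr9:114155437-114155536 (plus strand, 7 CG). All 4 hold more CG than COL11A1, and COL6A2 holds more than COL18A1. Other collagens without a start-site peak are poor in CG, with 1 CG in the 300-base RefSeq promoter of COL17A1, 1 in that of COL28A1 and 3 in that of COL9A1 at its canonical start.
COL6A2: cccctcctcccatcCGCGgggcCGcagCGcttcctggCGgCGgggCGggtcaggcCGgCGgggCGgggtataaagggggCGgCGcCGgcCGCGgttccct
COL23A1: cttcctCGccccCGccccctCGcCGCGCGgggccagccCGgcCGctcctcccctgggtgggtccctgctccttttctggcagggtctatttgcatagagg
COL26A1: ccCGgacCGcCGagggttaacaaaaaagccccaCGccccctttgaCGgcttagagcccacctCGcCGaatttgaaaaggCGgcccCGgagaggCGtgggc
COL27A1: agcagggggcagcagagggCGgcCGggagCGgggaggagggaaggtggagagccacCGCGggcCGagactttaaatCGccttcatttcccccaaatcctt

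H3K27ac peaks were found near the starts of fewer collagen genes than of protein-coding genes in general. A promoter peak, meaning any peak base within 3 kb of any annotated transcript start, was present at 20 of the 44 collagen genes (45.5%), against 63.4% of all protein-coding genes. The gap was wider at the canonical start, the start of the transcript that GENCODE marks as representative of the gene. Of the collagens, 13 (29.5%) had a peak within 3 kb of that start, against 59.9% of all protein-coding genes. A peak lay over the canonical start itself at 9 collagens (20.5%), against 53.5% of all genes. In total, 21 of the 44 collagens had no peak near any start or anywhere in the gene, against 6756 of the 20015 protein-coding genes. These shares were compared as counts and no test was made, since genes of a single list are not replicates.

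The nearest peak to each canonical collagen start was either close to it or far from it. Among the 13 genes with a canonical-start peak, 9 were covered at the start base. The other 4 were COL6A1, COL19A1, COL2A1 and COL4A6. The peaks of COL6A1, COL19A1 and COL2A1 began 11, 505 and 836 bases downstream of the start. The COL4A6 peak lay upstream of the canonical start and came within 1209 bases of it. The nearest peaks outside the window were those of COL7A1, 13.4 kb from the canonical start, COL14A1 at 14.1 kb and COL10A1 at 18.1 kb. No collagen had its nearest peak between 1209 bases and 13.4 kb from the canonical start. The share of all protein-coding genes in that range is not given, so the gap is not shown to be particular to collagens. Among genes without a canonical-start peak, the median distance was 58.4 kb for collagens and 55.6 kb for all protein-coding genes.

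**Figure D1:**
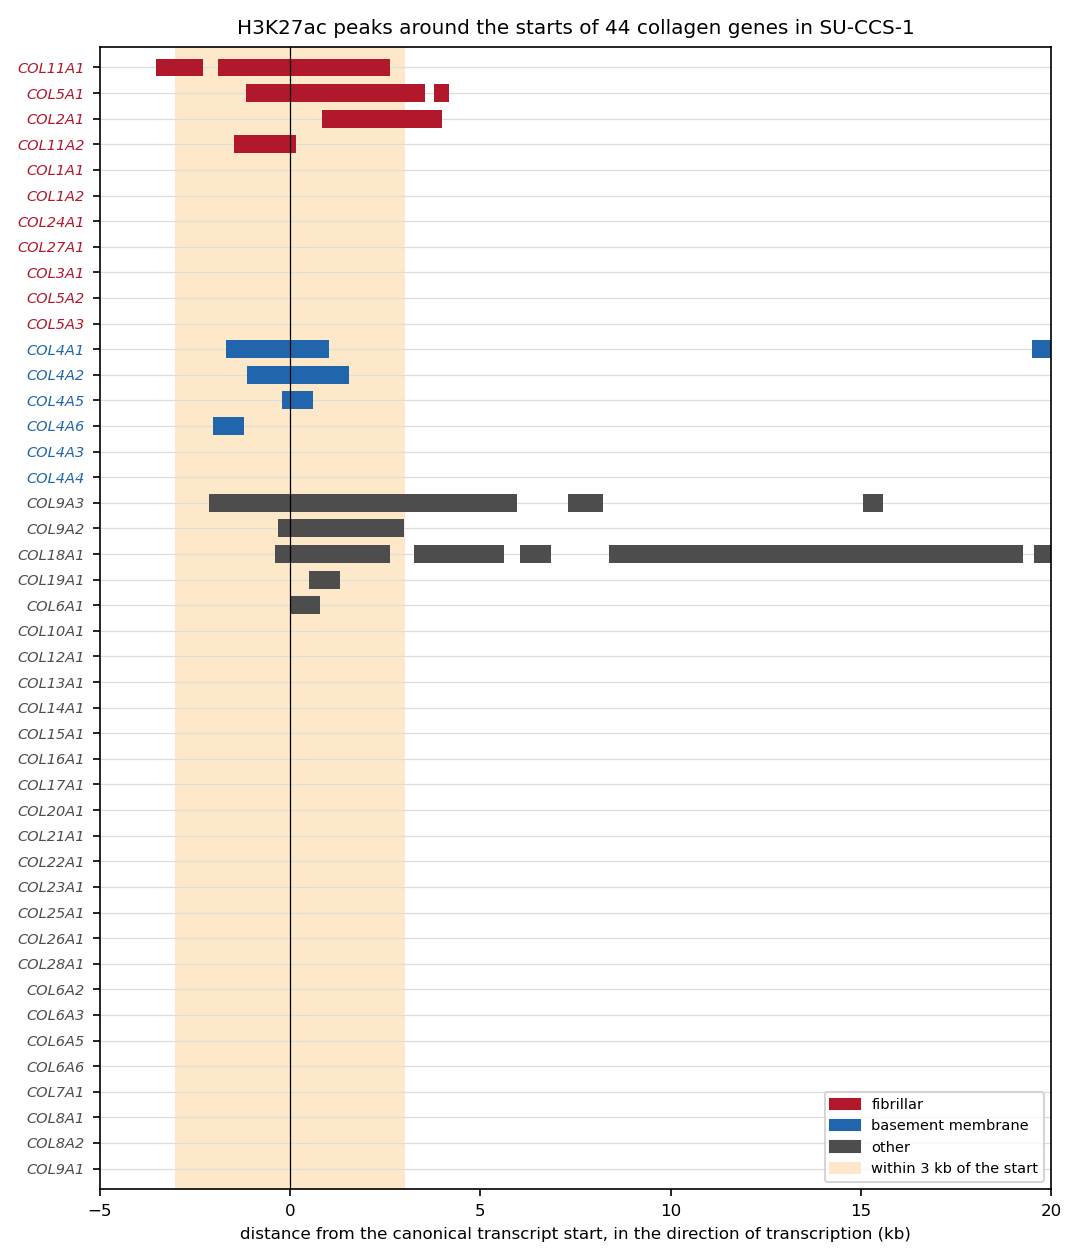
Peaks around the canonical start of each of the 44 collagen genes. The x axis is the distance from the canonical start in kb, in the direction of transcription, from 5 kb upstream to 20 kb downstream; each row is a gene, coloured by class, bars are peaks in the gene or within 3 kb of one of its starts, and the shaded band marks 3 kb each side. Bars enter the band in 13 rows, and the other 31 rows have none within it.

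**Figure D2:**
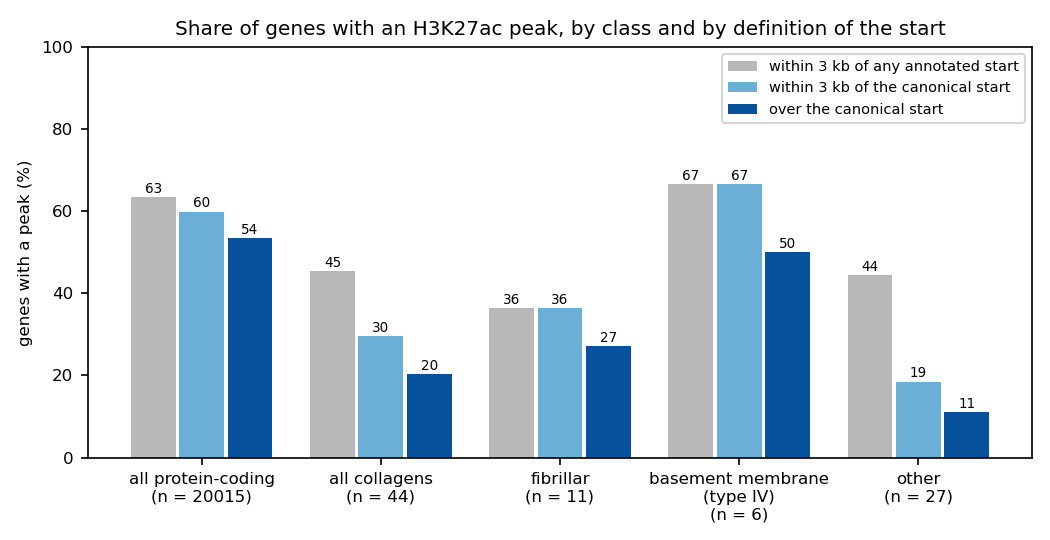
Share of genes with a peak, in percent, for all 20015 protein-coding genes, the 44 collagens and the 3 collagen classes, under 3 definitions of a peak at the start. The collagen bars fall from 45.5% to 29.5% to 20.5% as the definition tightens, while those of all protein-coding genes fall from 63.4% to 53.5%.

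Among the 11 fibrillar collagens, 4 (36.4%) had a promoter peak, against 63.4% of all protein-coding genes. In all 4 it lay within 3 kb of the canonical start, where 59.9% of all protein-coding genes had a peak. COL11A1, a chain of the thin fibrils of cartilage, had a 4530-base peak from 1898 bases upstream to 2631 bases downstream of the start. A further COL11A1 peak of 1240 bases lay just upstream, and together the pair filled 87.4% of the 6 kb window. Another 3 narrow peaks of 570 to 870 bases lay 226 to 230 kb downstream, near the 3′ end, within 3 kb of starts of transcripts annotated without a coding sequence. COL5A1, a regulatory chain of type V that helps set fibril diameter, had a 4700-base peak from 1152 bases upstream to 3547 bases downstream. COL2A1, the main fibrillar chain of cartilage, had a 3160-base peak inside intron 1, which began 836 bases past the start and did not reach it. COL11A2, another type XI chain, had a 1640-base peak that ended 156 bases past the start. That COL11A2 peak also lay within 3 kb of a start of RXRB, a nuclear receptor gene, so it cannot be assigned to either gene alone.

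The 7 fibrillar genes without a peak included the chains of the main fibrils of skin, bone and tendon. COL1A1 and COL1A2, which together make type I collagen, had their nearest peaks 18.9 kb and 114 kb from the canonical start. COL3A1, the type III chain of distensible tissues, had none within 466 kb, and the nearest to its neighbour COL5A2 was 261 kb away. The nearest peak was 24.9 kb away for COL5A3, 36.7 kb for COL27A1 and 59.1 kb for COL24A1. None of these 7 genes had a peak in its body either. Of all 11 fibrillar collagens, 1 (9.09%) had a body peak, against 17.9% of all protein-coding genes.

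Grouping the chains of the cartilage fibril, rather than by class, gave another split. Types II, IX and XI together build the cartilage fibril, and 5 of their 6 chains (COL2A1, COL9A2, COL9A3, COL11A1 and COL11A2) had a canonical-start peak (83.3%, against 59.9% of all protein-coding genes). The exception was COL9A1, whose nearest peak was 110 kb away. The COL11A2 peak is the one that also lay near a start of RXRB. Of the remaining 38 collagens, 8 (21.1%) had a canonical-start peak. The 38 include COL10A1, the type X chain of hypertrophic cartilage, which had no promoter peak and its nearest peak 18.1 kb away. This grouping was chosen after the values were seen and is given as a description.

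Of the 6 type IV genes, 4 (66.7%) had a promoter peak, a share near the 63.4% of all protein-coding genes. With only peaks that contain a start the count was 3 (50%), against 58.2% of all genes. Taken as pairs, 2 of the 3 head-to-head type IV pairs had a peak between the starts or within 3 kb of them, against 92.6% of the 1209 head-to-head pairs of protein-coding genes with canonical starts up to 3 kb apart. COL4A1 and COL4A2 encode the chains of the most widespread type IV network. Their canonical starts are 126 bases apart, and a single 2700-base peak covered both, reaching 1017 bases into COL4A1 and 1557 bases into COL4A2. COL4A5 and COL4A6, found in kidney and smooth muscle basement membranes, have canonical starts 1415 bases apart. Their 820-base peak covered the COL4A5 start, ran 613 bases into that gene, and filled 14.6% of the gap. The canonical COL4A6 start was left uncovered. Another protein-coding COL4A6 start, 1050 bases upstream of the canonical one, lies nearer the peak but was not covered either. Between the annotated ends of these genes are 340 bases, so the gap and its filled share depend on the start used. COL4A3 and COL4A4, chains of the filtering membrane of the kidney with starts 418 bases apart, had no peak within 160 kb of either start. By their canonical starts the pairs thus formed 3 states, with both starts covered, with 1 start covered and with none.

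COL5A3 also lies head to head with RDH8, a retinol dehydrogenase gene, but with 2978 bases between the starts and no peak. Other collagen genes that lie next to each other were not joined by peaks. COL6A1 and COL6A2 point the same way 93.1 kb apart, COL6A5 and COL6A6 32.3 kb apart, COL3A1 and COL5A2 face tail to tail 19.2 kb apart, and COL19A1 and COL9A1 tail to tail 3.57 kb apart. The space between each of these pairs held 0 peaks.

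Of the 27 other collagens, 12 (44.4%) had a promoter peak, against 63.4% of all protein-coding genes. At only 5 (18.5%) did it lie within 3 kb of the canonical start, against 59.9% of all protein-coding genes. COL9A3, a chain of the type IX collagen that coats cartilage fibrils, had an 8100-base peak from 2139 bases upstream to 5960 bases downstream, the widest at any collagen start. COL9A2, its partner, had a 3310-base peak that reached 2.99 kb into the gene. COL18A1, whose product sits in basement membranes and is cut to release endostatin, had a 3020-base peak over the start. COL6A1, a chain of the beaded filaments around cells, had a 790-base peak just inside the gene. COL6A2 encodes its obligate partner chain, and no peak lay within 55.3 kb of its start. COL19A1, a rare chain of basement membrane zones, had an 810-base peak in intron 1 that also lay within 3 kb of a start of LMBRD1, a lysosomal cobalamin export gene.

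At 7 genes, all of them among the other collagens, the promoter peak lay only at a start other than the canonical one. They made up 15.9% of the collagens, against 3.47% of all protein-coding genes. Only a gene without a canonical-start peak can fall in this group, and among such genes the shares were 22.6% of collagens and 8.67% of all. Such collagens also had more starts, with a median of 7 against 3 for all such genes. Their windows around the starts summed to a median of 23.9 kb against 8.9 kb, so the shares are not matched for the chance of a peak. COL13A1, a transmembrane collagen of the neuromuscular junction and other adhesion sites, had peaks of 1320 and 4050 bases 141 and 153 kb downstream of the canonical start. The starts near them belong to transcripts with no defined coding sequence or a retained intron. COL7A1, the anchoring fibril chain of skin, had peaks of 560 and 580 bases at its 3′ end, within 3 kb of starts of PFKFB4 and UCN2 as well. COL17A1, the hemidesmosome collagen, had a 400-base peak beyond its 3′ end. COL8A2, COL26A1 and COL6A3 likewise had peaks of 870, 1290 and 1080 bases in the 3′ part of the gene. The COL14A1 peak differed in position, with 820 bases at 14.1 kb upstream of the canonical start and within 3 kb of the start of a longer protein-coding transcript. COL6A3, COL14A1, COL17A1 and COL26A1 had no peak within 1 kb of any start, so their promoter peaks depended on the 3 kb window.

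Within the other class, promoter peaks were spread over the families, to be read beside the 63.4% of all protein-coding genes. They were present at 4 of 10 FACIT genes (collagens with interrupted helices that bind fibril surfaces), 2 of 5 beaded filament genes, 2 of 4 transmembrane genes, 1 of 3 short-chain network genes, 1 of 2 multiplexins, the anchoring fibril gene COL7A1 and 1 of 2 unclassified genes. At the canonical start, no transmembrane, short-chain or unclassified gene had a peak. The transmembrane genes COL23A1 and COL25A1 had no peak at all, with the nearest 35.7 and 130 kb from the start. The farthest of any collagen was that of the FACIT gene COL22A1, at 1531 kb.

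The number of annotated starts affects these counts, because each start adds a window in which a peak can fall. Collagens had a median of 7.5 distinct starts, against 5 for all protein-coding genes. Of the 22 collagens with 8 or more starts, 13 (59.1%) had a promoter peak, against 83.6% of all such genes. Of the 22 with fewer, 7 (31.8%) did, against 52.1%. The collagen share was the lower on both sides of the split.

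CpG content at the start separated collagens with and without a peak less than it separated protein-coding genes in general. The CpG observed/expected ratio compares the CG dinucleotides in a sequence with those its base composition would give, and it was taken over 500 bases each side of the canonical start. Its median was 0.62 for collagens and 0.72 for all protein-coding genes. Of the 22 collagens with a ratio of 0.6 or more, 7 (31.8%) had a canonical-start peak, against 80.7% of all genes with such a ratio. Of the 22 with a lower ratio, 6 (27.3%) had one, against 19.1% of all such genes. These 6 include COL4A5 and COL4A6, which share a single peak. They also include COL11A2 and COL19A1, whose peaks lay near starts of other protein-coding genes. COL19A1, with a ratio of 0.5996, fell just below the cut. Among the 7 with a higher ratio, COL4A1 and COL4A2 likewise share a single peak.

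The individual genes showed both extremes. COL23A1 had the highest ratio of any collagen (0.89) and no peak, and COL25A1 (0.88) and COL15A1 (0.87) were without a start-site peak as well. COL9A3, with a ratio of 0.89, had 85.7% of its window in peaks. COL11A1 reached 87.4% with a ratio of 0.54. In the low range, COL11A2 (0.46), COL4A5 (0.48) and COL4A6 (0.41) had peaks, and COL1A1 (0.49), COL1A2 (0.49) and COL3A1 (0.29) did not.

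**Figure D3:**
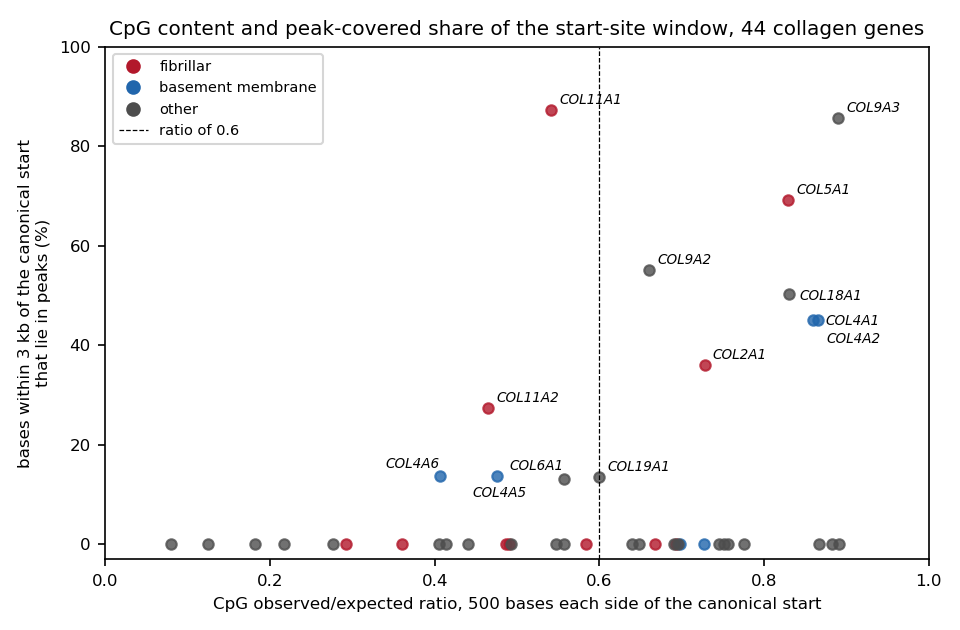
CpG observed/expected ratio around the canonical start (x axis) and the percent of bases within 3 kb of that start that lie in peaks (y axis), 1 point per collagen gene, coloured by class, with the 13 genes above 0 named. The named genes stand on both sides of the dashed line at 0.6, and the 31 unnamed genes lie along the bottom over the same range.

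Where a peak was present at the canonical collagen start, it was often broad. The median width of the widest such peak was 2700 bases over the 13 genes, with a range of 790 to 8100 bases. Over all protein-coding genes with a canonical-start peak the median was 1560 bases. Both medians are taken per gene, so a shared peak enters once for each gene. Such peaks are the 2700-base peak of COL4A1 and COL4A2 and the 820-base peak of COL4A5 and COL4A6. The COL11A2 and COL19A1 peaks also lay near starts of other protein-coding genes. Width in this list is set in part by how the broad caller joins neighbouring stretches.

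Body peaks, meaning peaks in the gene but beyond 3 kb of all its own starts, numbered 29 in 10 collagens (22.7%), against 17.9% of all protein-coding genes. Collagen genes are long, with a median of 145 kb against 27.5 kb, and long genes have more room for peaks. Of the 26 collagens of 100 kb or longer, 8 (30.8%) had a body peak, against 43.9% of all genes of that length. Of the 18 shorter ones, 2 (11.1%) did, against 12.1%. Of the 29 body peaks, 24 were centred in an intron of the canonical transcript and 1 in an exon, and 22 lay beyond 3 kb of any other gene's start. The same split for body peaks of all protein-coding genes is not given, so these counts are a description only.

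COL18A1 (chr21:45405165-45513720) held the most peak sequence of the collagens. Its 8 body peaks summed to 34440 bases, and with the promoter peaks they covered 35.6% of the gene, whereas the median collagen had 0%. Most lay in intron 2, where the widest measured 15050 bases (21.7 to 36.8 kb from the start) and the next 10880 bases (8.39 to 19.3 kb). Of all 30784 peaks, 99.9% were narrower than the wider of these. In intron 2, 5 of the body peaks lay within 3 kb of starts of the noncoding genes COL18A1-AS1 and COL18A1-AS2, and a promoter peak near the 3′ end lay within 3 kb of a start of the folate transporter gene SLC19A1. COL15A1, the other multiplexin, had 2 body peaks of 1070 and 2080 bases in its own intron 2, the first 27.1 kb from the start, and no promoter peak.

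The COL4A1/COL4A2 locus had acetylation on both sides of the shared promoter. COL4A1 held 5 body peaks of 700 to 1270 bases, all in intron 1, between 19.5 and 56.2 kb from its start. COL4A2 held 5 body peaks of 410 to 1940 bases, 4 of them in intron 4 and 1 in intron 20, between 64.3 and 148 kb from its start. The body peaks summed to 4740 and 4600 bases, nearly equal in the 2 genes. The other type IV genes had no body peak.

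The remaining body peaks were few and mostly narrow. COL5A1 held 4 of 400 to 530 bases, the first directly after its promoter peak and the others 70.2 to 114 kb from the start. COL13A1 held a 3900-base peak 157 kb from its canonical start, next to the 4050-base promoter peak. COL6A3, COL10A1, COL14A1 and COL21A1 held 1 each, of 420 to 1090 bases. COL10A1, the type X chain of hypertrophic cartilage, COL15A1 and COL21A1 were the 3 genes with a body peak and no promoter peak.

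**Figure D4:**
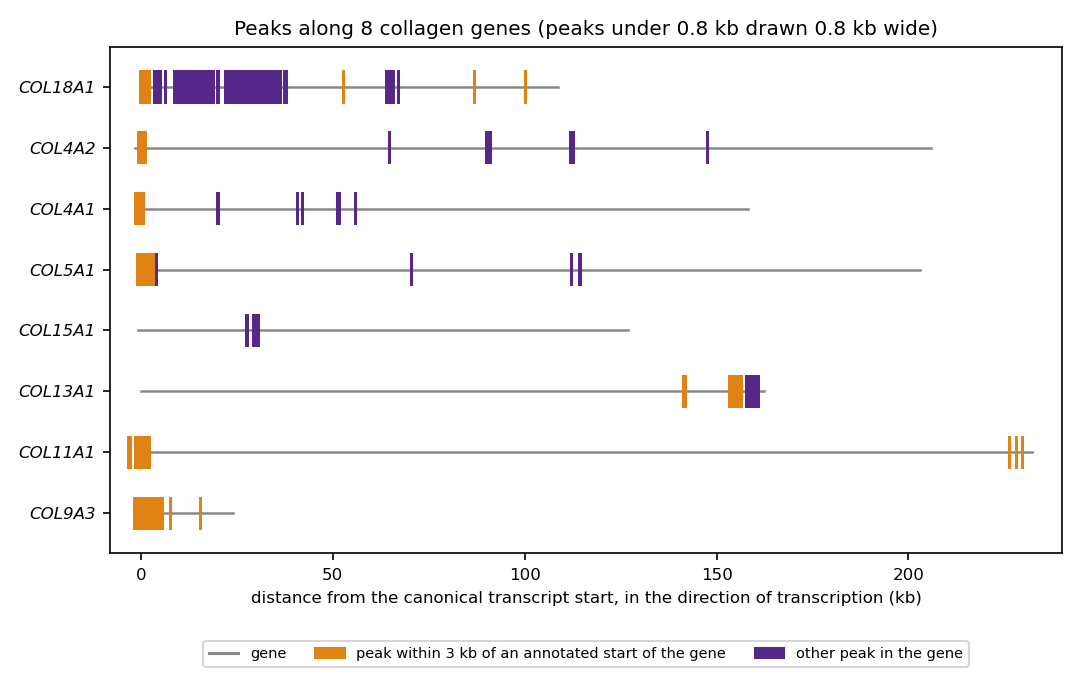
Peaks along 8 collagen genes, with distance from the canonical start in kb on the x axis, the gene as a grey line, promoter peaks in orange and body peaks in purple. COL18A1 carries 2 wide blocks of 10880 and 15050 bases in its 5′ part, COL4A1 and COL4A2 carry spaced narrow peaks, and those of COL13A1 stand at the 3′ end, 141 kb or more from the canonical start.

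Peaks were also joined into regions by the distance the study used for stitching, and the regions were put in order of the peak bases they held, since no signal was listed. On the ranked curve, 879 of 17049 regions lay past the point where the slope reaches 1. These are a ranking by width and are not super-enhancers as called from reads. A region past that point overlapped 3 collagens (6.82%), against 7.58% of all protein-coding genes. With a joining distance of 5 kb the order turned, with 4 collagens (9.09%) against 5.24%, COL11A2 being the addition. Peaks covered only 0.634% of COL11A2, at its start, where the peak also lay near a start of RXRB. COL18A1 lay in the region ranked 32 (chr21:45404761-45443460), which held 7 peaks with 34.4 kb of peak sequence over a span of 38.7 kb. COL9A3 lay in the region ranked 263, with 15.1 kb of peaks over 38.9 kb, and COL13A1 in that ranked 682, with 9.27 kb over 20.3 kb. The COL9A3 region (chr20:62793791-62832640) began upstream of the gene, and the promoter peaks of COL9A3 made up 9580 bases of it.

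Genes that act on collagen chains were examined for comparison in a list of 50, of which 36 (72%) had a promoter peak, against 63.4% of all protein-coding genes. Enzymes and chaperones that modify and fold the chains inside the cell nearly all had one, at 17 of 18, with P4HA3 the exception. P3H4 and FKBP10, both on chromosome 17, each had a 2450-base peak, and whether these genes share it was not examined. The modifying and folding genes with a peak included the prolyl hydroxylase subunits P4HA1 and P4HA2 and the lysyl hydroxylases PLOD1, PLOD2 and PLOD3. SERPINH1, the collagen chaperone, was another, and its peak measured 2840 bases. All 3 export genes, MIA3, MIA2 and SEC23A, had a promoter peak, that of MIA2 at another start only. Among genes for cleavage and cross-linking outside the cell, 9 of 13 did, including BMP1, which removes the C-propeptide, and LOX, the lysyl oxidase. TLL1, TLL2, ADAMTS2 and LOXL1 did not, although ADAMTS2, the N-propeptidase, held 6 body peaks of 8230 bases in all.

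The genes for breakdown and for receptors were mixed. Of 7 degradation genes, 2 had a promoter peak. MMP14, the membrane-bound collagenase, had an 8490-base peak over its start, and MMP2 had one at another start only, while MMP1, MMP8, MMP9, MMP13 and CTSK had none. Of 9 receptors, 5 had a promoter peak, namely the collagen-binding integrin chains ITGA1, ITGA2 and ITGB1 and the receptor kinases DDR1 and DDR2. ITGA10, ITGA11, LAIR1 and GP6 had none. The share of modification and folding genes with a promoter peak (94.4%) stood above that of the chains themselves (45.5%).

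**Figure D5:**
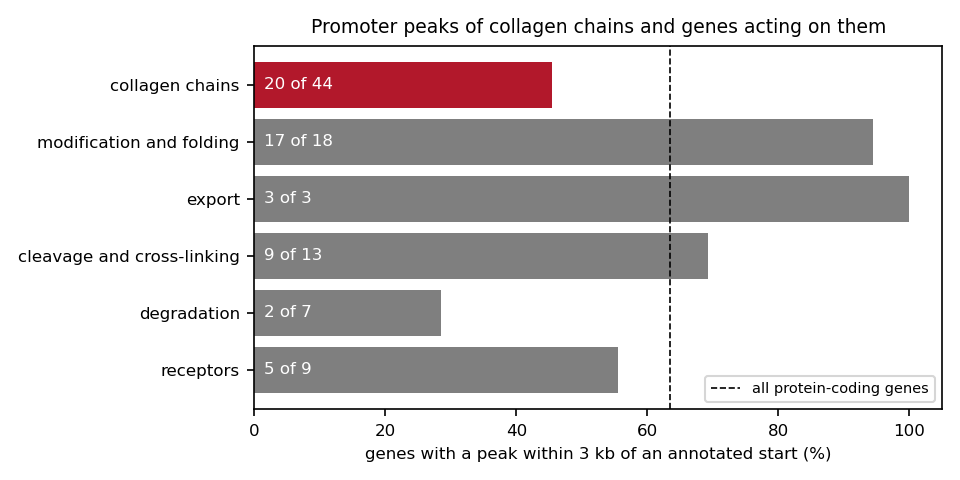
Percent of genes with a peak within 3 kb of any annotated start, for the 44 collagen chains (red) and 5 groups of genes that act on collagen (grey), with all protein-coding genes at 63.4% as a dashed line. The collagen bar (20 of 44) lies left of the line of all protein-coding genes, as do degradation (2 of 7) and receptors (5 of 9), while modification and folding (17 of 18), export (3 of 3) and cleavage and cross-linking (9 of 13) reach past it.

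The DNA-binding part of the fusion comes from ATF1, which recognises the ATF/CREB site TGACGTCA, so collagen promoters and peaks were searched for it on both strands. RefSeq promoters, 250 bases before to 50 bases after each start, were matched for 32 of the 44 genes, which gave 44 promoters. COL1A1, COL1A2, COL2A1, COL3A1, COL5A2, COL6A1, COL6A5, COL8A1, COL9A3, COL14A1, COL20A1 and COL22A1 were not matched. TGACGTCA was in 0 of the 44 promoters and in 1.85% of all 35116 RefSeq promoters. TGANNTCA, which also takes in TGACGTCA, was in 2 (4.55%), those of COL6A3 and COL21A1, against 11.5%. The AP1 site TGAGTCA was in 0, against 4.95%. Of the general promoter elements, GGGCGG was in 54.5% against 45.0%, CCAAT was in 31.8% against 34.6% and TATAAA was in 18.2% against 11.5%.

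Collagen peaks were searched in the same way. TGACGTCA occurred in 2 of the 58 collagen peaks, the 8100-base COL9A3 promoter peak and the 4050-base COL13A1 peak. That made 18.7 occurrences per Mb of peak sequence, against 19.1 over all 30784 peaks. TGANNTCA was in 24 collagen peaks (41.4%), against 40.8% of all peaks. Per Mb, TGANNTCA occurred 347 times in collagen peaks and 466 times in all peaks. TGAGTCA was in 8 collagen peaks (13.8%), against 16.8%, and occurred 103 times per Mb, against 150.5. A match of letters is a description of the sequence and does not show that a factor was bound.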

How the data were processed

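SU-CCS-1 chromatin gave 3 H3K27ac and 3 input samples, grouped by the antibody label. The authors mapped the reads to hg38 (BWA-MEM, 0.7.10-r789), removed duplicates with samtools, called broad peaks with MACS2 (2.2.6) against input and dropped ENCODE denylisted regions. The deposited list holds chromosome, start, end and name. Whether reads or peaks were merged is not given in the sources used here, and the list does not show the depth each library reached.

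Genes, transcripts and the canonical tag were taken from GENCODE version 44, with genes shared by X and Y counted once on X and mitochondrial genes left out. Any overlap of 1 base counted. Coordinates are counted from 1. Computation used Python 3.11.15, and the interval code was tested on simulated peaks with known answers. Alternatives changed the start sites, the window, the peaks kept, the joining distance and the class of the multiplexins. No test was made, because the list has no replicate values.

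Any collagen or pathway gene could be named, and other genes only where they share or overlap a collagen peak; the 4 line markers are an addition. The members, classes and lists were chosen with earlier results of these data known. Sequences are from RefSeq promoters (GRCh38.p14) and the hg38 genome.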

Additional observations from a re-analysis of the deposited data

How the results depend on the processing

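Of 36 alternative settings over 7 counts, 27 stayed within 1.5 times the reported count and 9 were lower. With canonical starts only, 13 of 44 collagens and 5 of 27 other collagens had a promoter peak. When the peak had to contain a start, these were 12 and 6. With only the widest 50% of peaks kept, they were 12 and 6, basement membrane genes fell to 2, genes with a body peak to 6 and head-to-head type IV pairs to 1. The collagen share of genes in regions past the slope-1 point turned from below to above that of all genes with a joining distance of 5 kb. The fibrillar count was 3 or 4 throughout, and in all 6 alternatives the collagen share of promoter peaks was below that of all protein-coding genes.

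No paired analysis was possible because no column of the list belongs to a replicate, and none was left out for the same reason. Without signal or reads per peak, weakly acetylated starts cannot be told apart from starts without the mark, and peak width cannot be read as signal.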
